A study of Mus musculus with 6 samples.

Results

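Retinoic acid (RA) is a signal made from vitamin A, and the 10 genes described here cover its synthesis (Rdh10, Aldh1a2, Aldh1a3), the reverse step that spares its precursor (Dhrs3), its breakdown (Cyp26a1, Cyp26b1, Cyp26c1), its binding in the cytoplasm (Crabp1, Crabp2) and its response (Rarb). They were measured in heads of mouse embryos at E8.5 on Affymetrix mouse Gene 1.0 ST arrays, which read a transcript with a set of probes spread along it. A gene was included when a probe set was annotated with its symbol and no other, and each of the 10 genes had 1 such probe set, out of 19938 genes measured in the same way. The groups were 3 pools of Jarid1b knockouts (Jarid1b-/-) and 3 pools of Jarid1b heterozygotes (Jarid1b+/-) on a C57BL/6 background, with 4 heads in each pool. The knockout is constitutive: an exon of Jarid1b flanked by loxP sites was removed with a Cmv-cre transgene, and heterozygotes were intercrossed. All controls therefore carry a deleted allele as well, no wild-type pools are included, and litter is not given in the labels. Values are log2 of the intensities after RMA, and a log2 fold change is the mean of the knockout pools minus the mean of the heterozygote pools.

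In vertebrate embryos, retinol is first oxidized to retinal, a reversible step, and retinal is then oxidized irreversibly to RA. RA enters the nucleus and binds RA receptors (RARs), which sit with retinoid X receptors on paired DNA half-sites and switch on their target genes, while CYP26 enzymes clear RA from cells that must be kept free of it. At the stage studied, trunk mesoderm is the main source of RA in the mouse, the hindbrain is patterned by it, and the future forebrain is shielded by CYP26 enzymes. Some genes of the pathway are themselves switched on by RA, among them Cyp26a1, Rarb and Dhrs3.

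Such feedback acts through RA response elements, of which the best known is a pair of half-sites in the same direction spaced by 5 bases (DR5). The windows around the start sites of the genes were searched for it where given. The windows with a match are shown because they set 2 of the 7 genes searched apart from the others by sequence. Windows of 300 bases (250 before and 50 after the start, RefSeq, GRCm38.p6) were given for 7 of the 10 genes, and Aldh1a3, Crabp2 and Rdh10 were not among them. The canonical half-site AGGTCA was allowed, as were the variant AGTTCA, the variant GGGTCA and also the variant GGTTCA, and any 2 of them had to follow each other in the same direction with 5 bases of any kind between, on either strand. A match was present at Cyp26a1 and Rarb and in none of the windows of Aldh1a2, Dhrs3, Cyp26b1, Cyp26c1 and Crabp1. Of all 32851 windows, 32 (0.0974%) held a match. With spacers of 2 bases and 1 base, 0.268% and 0.222% of all windows held a match and none of the windows of these genes did. The 120 bases before each start are shown 5′ to 3′ on the strand of the gene, with the element in capitals, for Cyp26a1 (chr19:37697688-37697807, plus strand) and Rarb (chr14:16575477-16575596, minus strand).
Cyp26a1: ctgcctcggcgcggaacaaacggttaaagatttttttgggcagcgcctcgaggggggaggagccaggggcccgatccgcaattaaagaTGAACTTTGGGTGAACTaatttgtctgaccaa
Rarb: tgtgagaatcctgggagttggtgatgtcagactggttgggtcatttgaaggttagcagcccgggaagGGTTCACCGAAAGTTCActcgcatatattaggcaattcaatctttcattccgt
The element lies from -32 to -16 at Cyp26a1 and from -53 to -37 at Rarb, counted from the start site, and the orientation of the Cyp26a1 element is opposite to the gene. Read in the direction of the half-sites, the Cyp26a1 element is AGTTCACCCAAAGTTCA, which is identical to the Rarb element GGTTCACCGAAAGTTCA at 15 of 17 positions and differs from it by G1A and G9C, counted from the 5′ end. A match is a stretch of letters, and binding of a receptor to these sites was not measured.

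Jarid1b, the deleted gene (symbol Kdm5b), had log2 intensities of 7.63, 7.47 and 7.71 in knockout pools and 9.17, 9.12 and 9.16 in heterozygote pools. It fell by 1.55 on the log2 scale (standard error 0.07, limma adjusted p = 6.29e-04), and no other of the 21789 probe sets tested passed an adjusted p of 0.05 (0.00459%). Without adjustment, 10.6% of all probe sets had a p under 0.05. Of 11 measured markers of head neural ectoderm, such as Otx2, Six3 and Sox2, none lay among the 7263 dimmest probe sets. These 7263 leaned higher in knockouts, with a median log2 fold change of 0.056, and the 7263 brightest leaned lower, with a median of -0.035. The pools also differed in sex-linked transcripts, and the Y-linked Uty was at 7.20, 7.48 and 7.17 in knockout pools and at 5.77, 7.60 and 5.77 in heterozygote pools.

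To test whether loss of Jarid1b changed the RA pathway in the early head, knockout and heterozygote pools were compared gene by gene. None of the 10 RA genes differed at an adjusted p under 0.05 (0 of 10, against 0.00459% of all probe sets), and none did at an unadjusted p under 0.05 either (0 of 10, against 10.6%). The smallest adjusted p among them was 0.503, for Aldh1a3 (limma, Benjamini-Hochberg over all probe sets). In none of the 10 genes did the knockout pools lie apart from the heterozygote pools, while the groups did not overlap in 17.1% of all probe sets (8.03% higher and 9.03% lower in knockouts). The log2 fold changes ran from -0.12 for Cyp26a1 to 0.20 for Aldh1a3, with 6 above and 4 below 0, where 50.3% of all probe sets were below 0. Their median was 0.029, beside -0.00072 over all probe sets. A p above the threshold does not show that levels were equal, but the 95% confidence intervals bound the change: all 10 lay within a 1.5-fold change in either direction. The smallest p that an exact permutation of 3 pools against 3 allows is 0.1. The bounds come from limma, which combines the spread of each gene with a spread shared across genes. In whole heads, fewer cells that express a gene and less RNA per cell cannot be told apart.

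**Figure D1:**
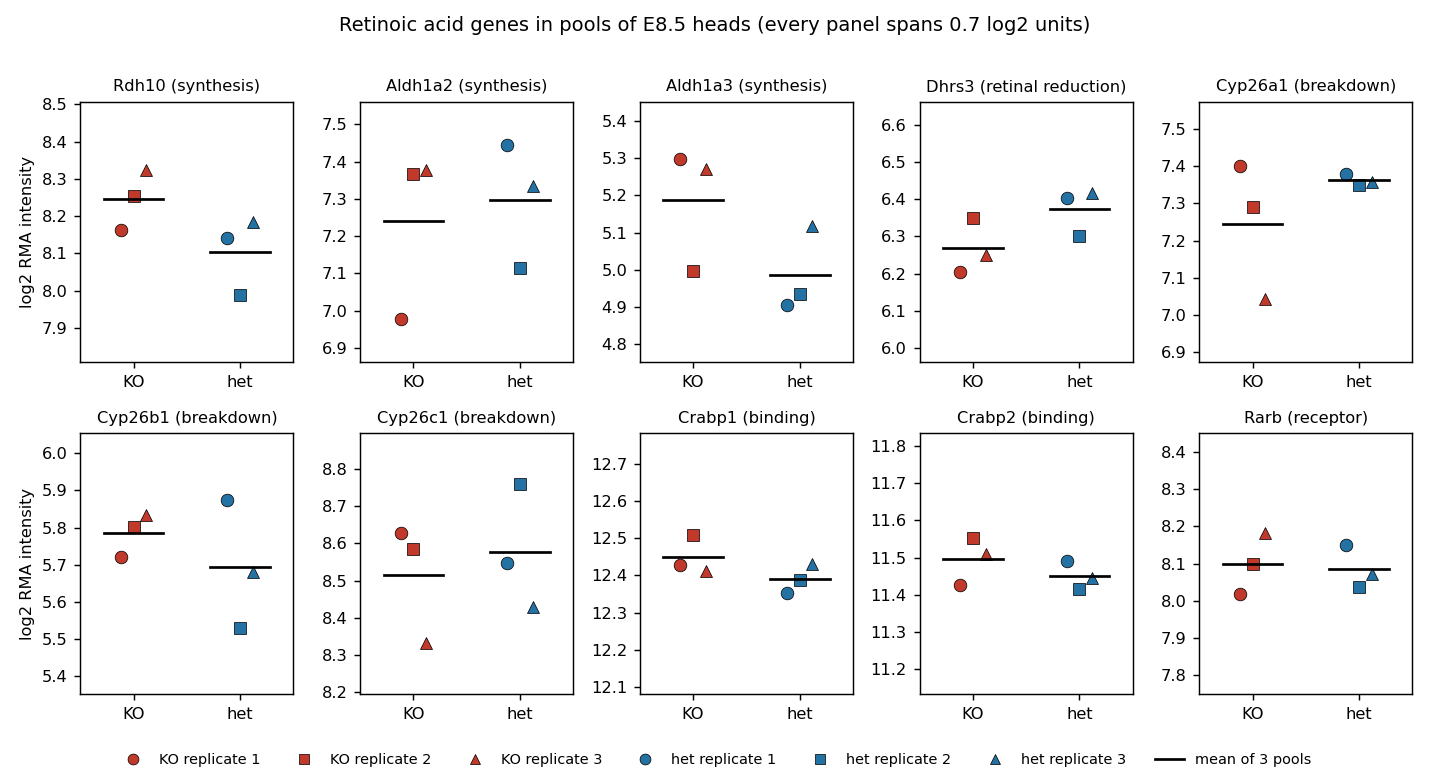
Log2 RMA intensity of the 10 RA genes in each pool of E8.5 heads, with Jarid1b knockout pools (KO) in red, heterozygote pools (het) in blue, 1 symbol per replicate number, and a black line for the group mean. The axis spans 0.7 log2 units in every panel, and in all 10 panels the points of both genotypes overlap in range.

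**Figure D2:**
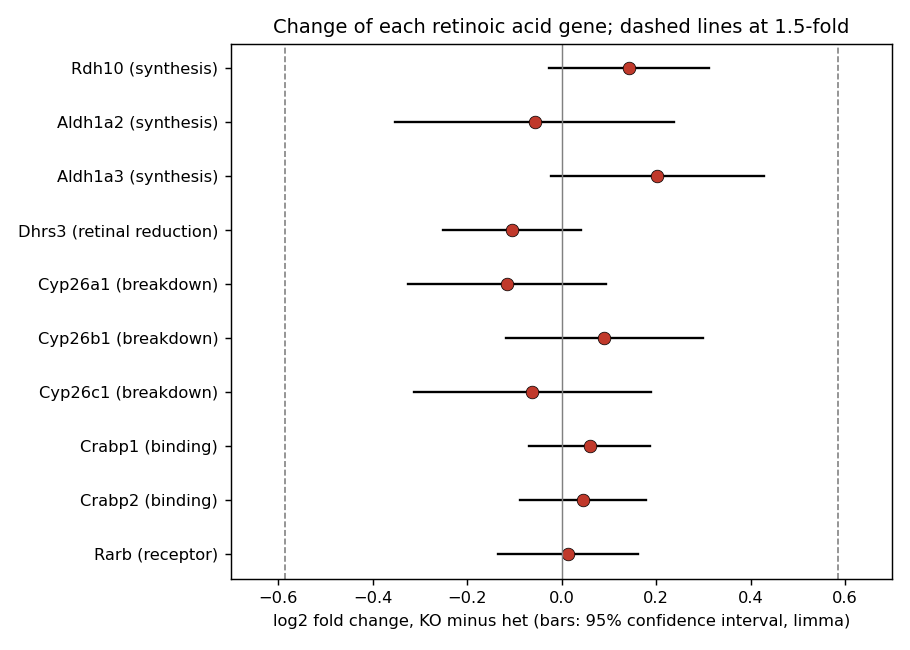
Log2 fold change in knockouts over heterozygotes (points) with its 95% confidence interval from limma (bars) for each RA gene, with dashed lines at a 1.5-fold change. Every interval spans 0 and lies between the dashed lines, and the widest is that of Aldh1a2, from -0.35 to 0.24.

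The genes of RA synthesis gave the largest positive value and the widest interval of the 10. Rdh10, the retinol dehydrogenase that makes retinal in the embryo, had log2 intensities of 8.16, 8.25 and 8.32 in knockout pools and 8.14, 7.99 and 8.18 in heterozygote pools. All 3 knockout pools lay above the heterozygote mean, but heterozygote replicate 3 was above knockout replicate 1. The means were 8.25 ± 0.08 in knockouts and 8.10 ± 0.10 in heterozygotes (SD, n = 3 pools each), with a log2 fold change of 0.14 (95% confidence interval -0.03 to 0.31, limma adjusted p = 0.529). With the Y-linked level of each pool as a covariate, it was 0.22 (adjusted p = 0.585), and without heterozygote replicate 2 it was 0.084. The covariate was one of 4 settings in which 1 of the 10 RA genes had an unadjusted p under 0.05 with all pools kept. In these 4 settings, 8.09% to 10% of all probe sets had one.

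Aldh1a2 encodes RALDH2, the retinaldehyde dehydrogenase that makes most of the RA of the early mouse embryo. It was at 6.98, 7.37 and 7.38 in knockout pools and at 7.44, 7.12 and 7.33 in heterozygote pools. The lowest pool, knockout replicate 1, and the highest, heterozygote replicate 1, were 0.47 apart, the widest range of the 10 genes. The means of 7.24 ± 0.23 in knockouts and 7.30 ± 0.17 in heterozygotes (SD, n = 3 each) differed by -0.06 (95% confidence interval -0.35 to 0.24, limma adjusted p = 0.893). Single pools decide the sign, since the log2 fold change was 0.075 without knockout replicate 1 and 0.016 without heterozygote replicate 1. The spread within genotypes was larger than in 93.7% of all probe sets. Markers of somitic and caudal mesoderm differed in how closely they followed Aldh1a2. Of the 8 measured, 4 were lowest and 2 highest in knockout replicate 1, and over the 6 pools their r with Aldh1a2 ran from -0.43 for Uncx and -0.41 for Tbx6, over 0.13 to 0.15 for Msgn1, Cdx2 and Foxc2, to 0.44 for Pax3, 0.61 for Tcf15 and 0.89 for Meox1. The log2 of their summed intensity was 10.40, 10.60 and 10.66 in knockout pools and 10.57, 10.55 and 10.45 in heterozygote pools. Like Aldh1a2, this sum was lowest in knockout replicate 1. The part of mesoderm content in the spread of Aldh1a2 was not tested.

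Aldh1a3 encodes RALDH3, which makes RA in the developing eye and nose. Its intensities were 5.30, 4.997 and 5.27 in knockout pools and 4.90, 4.93 and 5.12 in heterozygote pools. Knockout replicates 1 and 3 lay above every heterozygote pool, and knockout replicate 2 lay below heterozygote replicate 3. Its log2 fold change of 0.20 (95% confidence interval -0.02 to 0.43, limma adjusted p = 0.503) was the largest of the 10. It was also the only one of them among the 7263 dimmest probe sets, which as a whole leaned higher in knockouts. After quantile normalization the value was 0.14, and without knockout replicate 2 it was 0.30 (adjusted p = 0.387).

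Dhrs3 encodes a retinal reductase that returns retinal to retinol and so acts against Rdh10. It was at 6.21, 6.35 and 6.25 in knockout pools and at 6.40, 6.30 and 6.42 in heterozygote pools. All 3 knockout pools lay below the heterozygote mean, and only knockout replicate 2 reached into the range of the heterozygotes. The log2 fold change was -0.11 (95% confidence interval -0.25 to 0.04, limma adjusted p = 0.579), and it stayed negative in all 16 other settings.

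Among the 3 enzymes of RA breakdown, the log2 fold changes were -0.12, 0.09 and -0.06. Cyp26a1, which clears RA in the anterior and caudal ends of the embryo, was at 7.40, 7.29 and 7.04 in knockout pools and at 7.38, 7.35 and 7.36 in heterozygote pools. The heterozygote pools were almost level, at 7.36 ± 0.02, whereas the knockout pools spread on both sides of them, at 7.25 ± 0.18 (SD, n = 3 each). The SD in knockouts was 11.4 times that in heterozygotes, and a ratio at least as high was seen in 1.23% of all probe sets. The log2 fold change of -0.12 (95% confidence interval -0.33 to 0.09, limma adjusted p = 0.669) rests on knockout replicate 3, without which it was -0.016, and it was -0.19 without knockout replicate 1.

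Cyp26c1, which is expressed in the head mesenchyme and the hindbrain, was also lowest in knockout replicate 3. It was at 8.63, 8.59 and 8.33 in knockout pools and at 8.55, 8.76 and 8.43 in heterozygote pools. The log2 fold change of -0.06 (95% confidence interval -0.31 to 0.19, limma adjusted p = 0.857) was 0.029 without knockout replicate 3 and 0.028 without heterozygote replicate 2. In knockout replicate 3 all 8 measured markers of yolk sac visceral endoderm had their lowest value, and the log2 of their summed intensity was 12.98, 12.99 and 11.82 in knockout pools and 13.01, 12.77 and 12.96 in heterozygote pools. All 6 measured endothelium markers and 4 of 7 surface ectoderm markers were lowest in this pool too. The log2 of the summed intensity was 10.19, 10.34 and 10.01 in knockout pools and 10.21, 10.31 and 10.22 in heterozygote pools for endothelium. For surface ectoderm it was 12.65, 12.66 and 12.51 in knockout pools and 12.76, 12.74 and 12.79 in heterozygote pools. This sum was thus lower in every knockout pool than in every heterozygote pool, and not in knockout replicate 3 alone. Of the 7 surface ectoderm markers, 3 had groups that did not overlap, all lower in knockouts, beside 9.03% lower of all probe sets. The part of these differences between pools in the low Cyp26a1 and Cyp26c1 values was not tested. Cyp26b1, which acts in the hindbrain and later in limbs and gonads, was at 5.72, 5.80 and 5.83 in knockout pools and at 5.87, 5.53 and 5.68 in heterozygote pools. All 3 knockout pools lay between the lowest and the highest heterozygote pool, and the log2 fold change was 0.09 (95% confidence interval -0.12 to 0.30, limma adjusted p = 0.747). It was 0.0082 without heterozygote replicate 2, 0.18 without heterozygote replicate 1 and 0.20 with the Y-linked covariate.

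The binding proteins had the smallest spread within genotypes of the 10 genes. Crabp1, which binds RA in the cytoplasm and marks hindbrain and neural crest cells, was at 12.43, 12.51 and 12.41 in knockout pools and at 12.35, 12.39 and 12.43 in heterozygote pools. Crabp2, which carries RA to its receptors in the nucleus, was at 11.43, 11.55 and 11.51 in knockout pools and at 11.49, 11.42 and 11.45 in heterozygote pools. Both were highest in knockout replicate 2, and the pools of both genotypes were interleaved. The log2 fold change was 0.06 for Crabp1 (95% confidence interval -0.07 to 0.19, limma adjusted p = 0.730). For Crabp2 it was 0.04 (95% confidence interval -0.09 to 0.18, adjusted p = 0.806). Without knockout replicate 2 the values were 0.030 for Crabp1 and 0.016 for Crabp2.

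Rarb, the receptor whose promoter holds the DR5 element shown above, had the smallest change of the 10. Its intensities were 8.02, 8.10 and 8.18 in knockout pools and 8.15, 8.04 and 8.07 in heterozygote pools, so that knockouts held both the lowest and the highest pool. The log2 fold change was 0.01 (95% confidence interval -0.13 to 0.16, limma adjusted p = 0.960), and it was -0.028 without knockout replicate 3 and -0.012 without heterozygote replicate 2. For the 2 genes with a DR5 element in the windows searched, the intervals thus allow Rarb to lie between 0.911 and 1.12 times the heterozygote level. For Cyp26a1 they allow between 0.798 and 1.07 times that level.

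No pool was the lowest or the highest of the 6 for more than 3 of the 10 genes. Knockout replicate 1 was the lowest of the 6 pools for 3 genes and the highest for 2, and heterozygote replicate 2 was the lowest for 3 and the highest for 1. Knockout replicate 2 was the lowest for 0 genes and lay above the mean of the 6 pools for 8. Heterozygote replicate 2 lay above that mean for 2 genes. Over the 6 pools, Aldh1a2 and Rarb followed each other most closely (Pearson's r = 0.85), and Rdh10 and Cyp26c1 ran most clearly in opposite directions (r = -0.83). Among the pairs of the 10 genes, 7 had r over 0.7 and 3 had r under -0.7. The pair with DR5 elements in the windows searched, Cyp26a1 and Rarb, had r = -0.70. These are descriptions over 6 pools that share arrays and normalization, taken from 45 pairs of genes. Of all other genes, Snord87, Tnc and Haglr were most like Aldh1a2 (r = 0.991, 0.989 and 0.989), and Iglon5, Tbl2 and Calr were most like Cyp26a1 (r = 0.996, 0.991 and 0.990). For each, the 3 were picked as the highest among 19938 genes over only 6 pools. In all, 32 genes had r over 0.95 with Aldh1a2 and 106 with Cyp26a1.

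**Figure D3:**
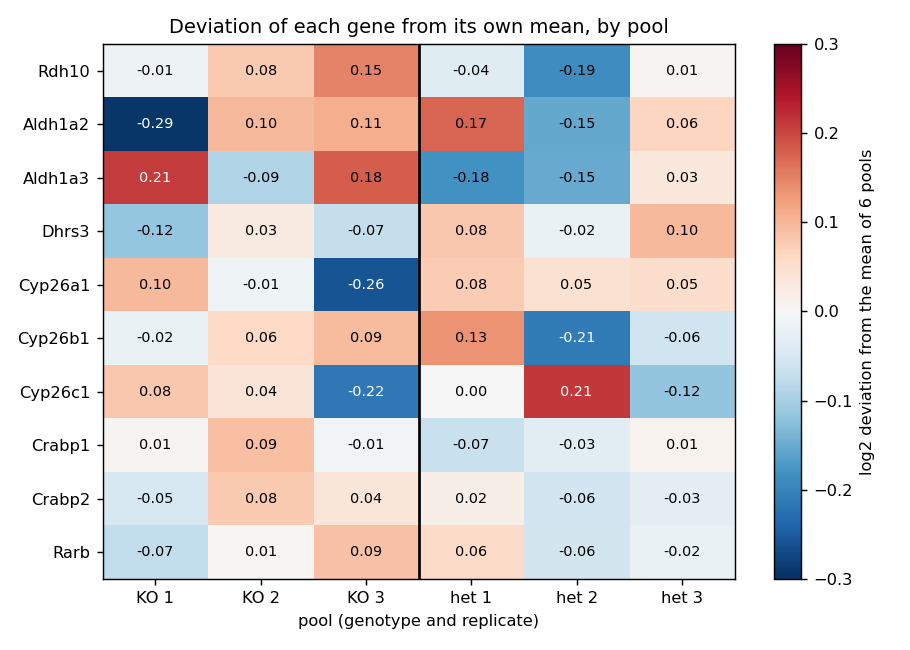
Log2 deviation of each RA gene (rows) from its own mean over 6 pools, for knockout pools (KO, left of the black line) and heterozygote pools (het, right), with the color scale from -0.3 (blue) to 0.3 (red). The most negative cell is Aldh1a2 in knockout replicate 1 (-0.29), and no column has a single color throughout.

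The rest of the retinoid pathway was read from 7 lists with 94 genes, of which 84 were measured. After adjustment in limma, 0 of 84 had a p under 0.05. Before adjustment, 2 higher and 4 lower ones did, against 5.97% and 4.66% of all probe sets, which makes 7.14% of the list against 10.6% of all. The balance of directions was not stable: it was 4 higher and 2 lower after quantile normalization, 4 and 3 after cyclic loess, and the lower ones numbered 0 without heterozygote replicate 2 and 0 without heterozygote replicate 3. The knockout pools lay apart from the heterozygote pools in 13 of them (15.5%, against 17.1% of all probe sets). Their median log2 fold change was 0.0011.

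Of 11 measured genes of retinoid supply and storage, none had an unadjusted p under 0.05. Rbp4, the carrier of retinol in plasma, was at 9.63, 9.74 and 8.52 in knockout pools and at 9.70, 9.39 and 9.61 in heterozygote pools, a log2 fold change of -0.27. Ttr, the partner of Rbp4, was at 11.62, 11.61 and 10.74 in knockout pools and at 11.64, 11.49 and 11.61 in heterozygote pools, a log2 fold change of -0.26. Both are also products of the yolk sac visceral endoderm and were low in the same pool as its other markers, knockout replicate 3. They were the only 2 of 84 genes whose 95% confidence interval reached past a 1.5-fold change. Rbp2 and Bco2 were at the other end of this list, at 0.20 and 0.09.

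Among 20 other retinol and retinal oxidoreductases, 2 were lower and none higher at an unadjusted p under 0.05, beside 4.66% lower and 5.97% higher of all probe sets, and 2 of 20 is close to the 10.6% in either direction. Dhrs4, a reductase of the same family as Dhrs3, was at 8.40, 8.35 and 8.36 in knockout pools and at 8.46, 8.58 and 8.57 in heterozygote pools. Every knockout pool lay below every heterozygote pool, and the log2 fold change was -0.17 ± 0.06 (SE, limma adjusted p = 0.413). Groups did not overlap in 2 of these 20 genes (1 higher and 1 lower), beside 17.1% of all probe sets. Rdh5 had a log2 fold change of -0.21 (adjusted p = 0.465) and Rdh11 of -0.25 (adjusted p = 0.515), and their groups overlapped. The highest values were 0.21 for Adh4 and 0.19 for Adh7, both alcohol dehydrogenases and both among the 7263 dimmest probe sets. The 4 other genes of RA binding and breakdown ran from -0.06 for Cyp1b1 and -0.03 for Cyp2c39 to -0.01 for Fabp5, which carries RA to another nuclear receptor, and 0.17 for Cyp2s1.

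The list of receptors other than Rarb had the lowest list median, at -0.082 over 6 genes. These were 2 RA receptors, 3 retinoid X receptors and Ppard, a further nuclear receptor, at -0.05. Rarg was at 7.43, 7.19 and 7.31 in knockout pools and at 7.49, 7.47 and 7.53 in heterozygote pools. Its groups did not overlap, and the log2 fold change was -0.18 ± 0.07 (SE, limma adjusted p = 0.438). Rara, which is expressed throughout the embryo, was at 8.79, 8.82 and 8.74 in knockout pools and at 8.91, 8.96 and 8.82 in heterozygote pools. Here too the groups did not overlap, if narrowly, and the log2 fold change was -0.11 (limma adjusted p = 0.537). Rara is among the 7263 brightest probe sets, which as a whole leaned lower in knockouts. Of the 6 receptors, these 2 had groups that did not overlap, beside 17.1% of all probe sets (9.03% lower in knockouts). Only Rarg had an unadjusted p under 0.05 in limma (1 of 6, beside 10.6% of all probe sets). The RA receptors thus gave 0.01 for Rarb beside -0.18 and -0.11 for Rarg and Rara, and the differences between these values were not tested. Rxrg, a retinoid X receptor, was at -0.18, while Rxrb and Rxra were at 0.02 and 0.07. Of 12 cofactors that work with these receptors, none had an unadjusted p under 0.05, and they ran from Ncoa1 and Med1 at -0.13 and -0.04 to Nrip1 and Tbl1xr1 at 0.05 and 0.11.

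Genes known to be induced by RA in mouse embryos or cells gave 2 higher and 0 lower of 20 at an unadjusted p under 0.05, which in either direction is close to the 10.6% of all probe sets (5.97% higher and 4.66% lower). Nr2f1 (COUP-TFI), an orphan nuclear receptor of the early brain, was at 7.95, 8.24 and 8.25 in knockout pools and at 7.89, 7.88 and 7.88 in heterozygote pools. Every knockout pool lay above every heterozygote pool, and the log2 fold change was 0.26 ± 0.08 (SE, limma adjusted p = 0.412). Tshz1, a zinc finger factor, was at 6.88, 6.90 and 6.92 in knockout pools and at 6.78, 6.73 and 6.81 in heterozygote pools. The log2 fold change of Tshz1 was 0.12 ± 0.05 (SE, adjusted p = 0.461), again without overlap of the groups. In all, 4 of these 20 genes had groups that did not overlap (3 higher and 1 lower). Of all probe sets, 17.1% did not (8.03% higher and 9.03% lower). The 9 Hox genes on this list, which set position along the hindbrain and trunk, were split 5 above and 4 below 0, from Hoxb4 at -0.14 to Hoxd4 at 0.17, and all 9 had overlapping groups. Stra8, a meiosis gene induced by RA in germ cells, was at -0.10. Of 11 genes that border or oppose RA in the early embryo, 3 had groups that did not overlap (1 higher and 2 lower), beside 17.1% of all probe sets. Only Six3, a forebrain and eye factor, had an unadjusted p under 0.05 in limma (1 of 11, beside 10.6%). It was at 7.32, 7.26 and 7.30 in knockout pools and at 7.33, 7.55 and 7.50 in heterozygote pools. The groups narrowly did not overlap, and the log2 fold change was -0.17 (limma adjusted p = 0.457). Dkk1, a Wnt inhibitor needed for the head, was at -0.14, and Fgf4 and the FGF feedback inhibitor Spry1 were at 0.05 and 0.09.

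**Figure D4:**
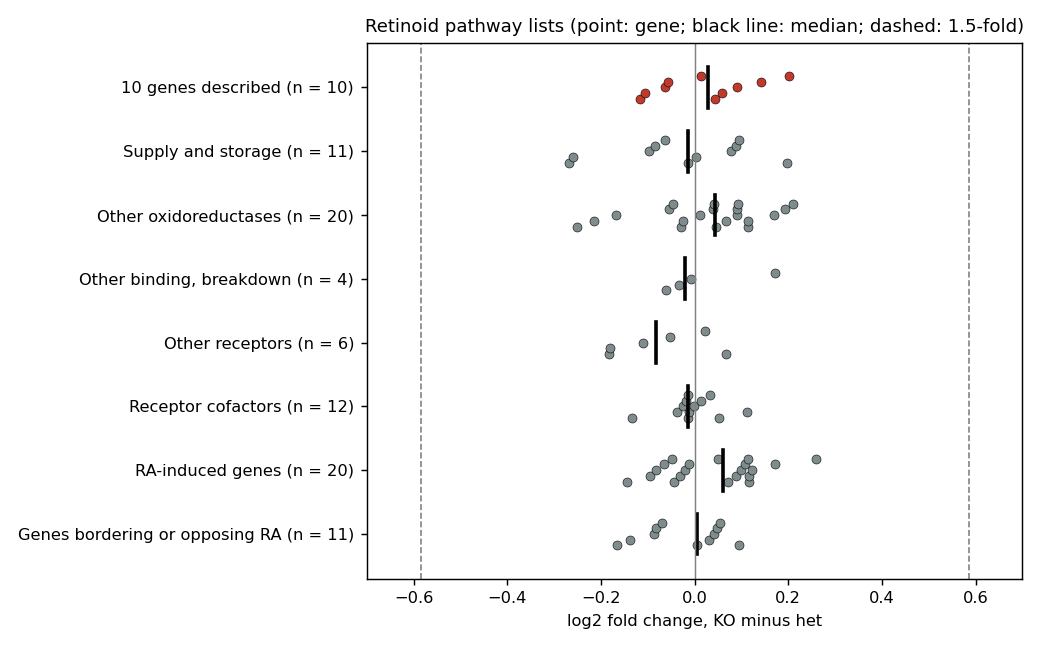
Log2 fold change (knockout minus heterozygote) of the 10 RA genes (red) and of 84 other genes on 7 retinoid lists (gray), with a black line for the median of each list. Dashed lines mark 1.5-fold, and the points run from -0.27 (Rbp4) to 0.26 (Nr2f1), inside these lines.

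The values of the 10 genes were recomputed in 16 other settings, 6 of which leave out a pool. Of the 159 values so obtained, 152 kept the sign of the value reported above, and the adjusted p of none fell under 0.05 in limma. The sign was the same in every setting for 7 genes and turned for Aldh1a2, Cyp26c1 and Rarb. The largest value was 0.30, for Aldh1a3, and over all settings the confidence intervals of the 10 genes stayed between -0.46 and 0.56, which is within a 1.5-fold change.

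**Figure D5:**
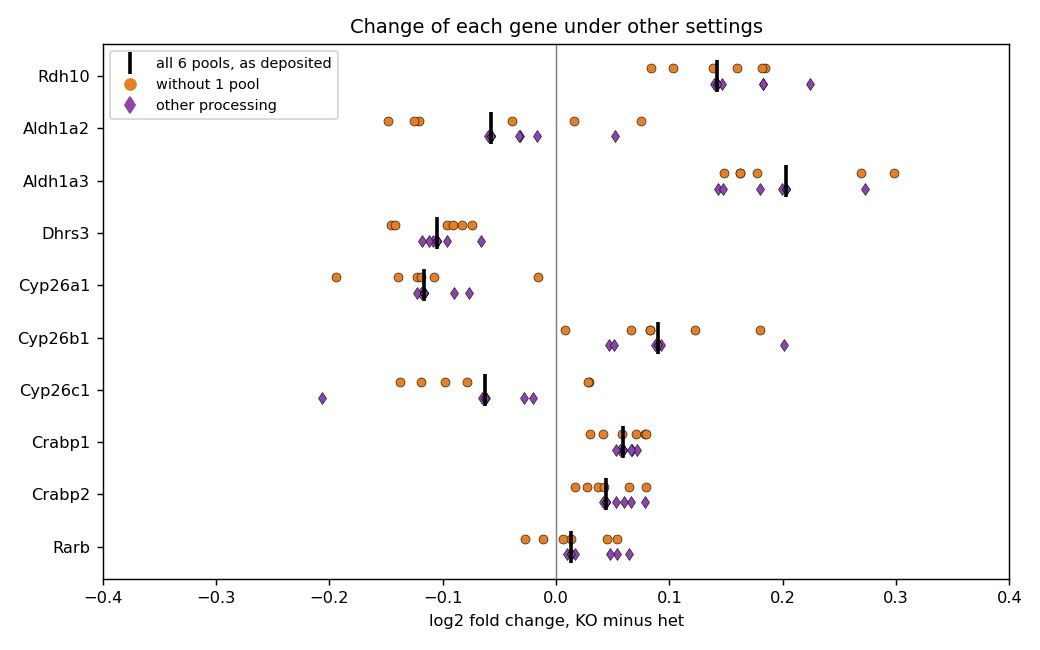
Log2 fold change of each RA gene in knockouts over heterozygotes with all 6 pools as deposited (black bars), without 1 pool (orange circles) and under other processing (purple diamonds). The points of Aldh1a2, Cyp26c1 and Rarb fall on both sides of 0, and those of the other 7 genes stay on 1 side.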

How the data were processed

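RNA of E8.5 heads was measured on mouse Gene 1.0 ST arrays. The deposited intensity values were made by the authors with RMA in Affymetrix Power Tools (submitters' processing notes; versions and genome build are not given in the sources used here), which corrects background, normalizes between arrays and summarizes probes. They run from 2.53 to 11741 on a linear scale, so log2 was taken here. Of 35556 rows, the 21789 with exactly 1 gene symbol were tested, and 1621 with several and 12146 with none listed were not. Symbols of 21698 rows were updated by gene number to RefSeq (GRCm38.p6). The row with the highest mean stood for a gene. Knockouts and heterozygotes were compared with limma 3.58.1 in R 4.3.3 (lmFit, eBayes, no covariate), with Benjamini-Hochberg adjustment over all tested rows. The scripts were tested on simulated data. Pools are separate samples, 4 heads each, and their number limits the precision.

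The 10 genes and the lists were chosen with earlier results of these data known. In each list the 2 highest, the 2 lowest and any gene at an unadjusted p under 0.05 with groups that do not overlap were named. Rara and Uty were named after their values were seen. Alternatives changed the rows tested, the centring or normalization (median, quantile, cyclic loess), the variance model, array weights, a replicate block or a Y-linked covariate, or left out each pool in turn; the closing section gives their effect.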

Additional observations from a re-analysis of the deposited data

How the results depend on the processing

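In limma, 0 of the 10 RA genes had an adjusted p under 0.05 in any of the 16 alternatives, and 0 had a 2-fold change. The count at an unadjusted p under 0.05, which was 0 with all pools, was 1 after quantile normalization, after cyclic loess and with the Y-linked covariate (Rdh10 each time), and 1 with the replicate block (Aldh1a3). In these 4 settings, 8.24%, 8.34%, 8.09% and 10% of all probe sets passed, so 1 of 10 is close to the share of all. Leaving out a pool gave counts from 0 to 1, with Aldh1a3 passing without knockout replicate 2 and without heterozygote replicate 3. For the 84 other retinoid genes the count was 6 with all pools and ran from 2 to 8 when a pool was left out. Over all probe sets, 10.6% passed with all pools and 7.56% to 11.3% when a pool was left out. Its split was 2 higher and 4 lower with all pools, and the 4 lower ones were 0 without heterozygote replicate 2 or replicate 3 (quantile normalization gave 4 higher and 2 lower). The total was 2 without heterozygote replicate 2, and 3 without knockout replicate 2, knockout replicate 3 or heterozygote replicate 3. Signs turned for Aldh1a2 with the Y-linked covariate, at a log2 fold change of 0.052. Leaving out a pool gave ranges of -0.15 to 0.075 for Aldh1a2, -0.14 to 0.029 for Cyp26c1 and -0.028 to 0.053 for Rarb, and the cause was not tested. The median of the 10 genes ran from 0.015 to 0.073 in the settings that keep them all. It was 0.013 over the 9 genes that remain without the 7263 dimmest rows. Aldh1a3 has no value when the 7263 dimmest rows are left out. Deviations of same-numbered pools from their group means correlated at 0.00076, 0.11 and -0.013. Between pools of different numbers the values ran from -0.083 to 0.080. These values cannot show whether same-numbered pools share a litter, which the labels do not give. The replicate block changed no adjusted call. No detection values were used, so the lower limit of signal is not known.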

Other observations

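Rdh10 and Dhrs3 encode enzymes of opposite direction on retinol and retinal, and their difference on the log2 scale separated the knockout pools from the heterozygote pools. It was 1.96, 1.91 and 2.08 in knockout pools and 1.74, 1.69 and 1.77 in heterozygote pools, a difference between the groups of 0.25. This pair was picked after the values were seen, from 45 pairs of the 10 genes, and no test was made of it. Of the 45 pairs, which share genes, 7 had groups that did not overlap. For single probe sets the share was 17.1%, and no share was computed over pairs of other genes. Dhrs3 was part of 3 more of the 7, those with Crabp1, Crabp2 and Rarb, Rdh10 of 2 more, those with Aldh1a2 and Rarb, and the last was Aldh1a2 with Cyp26b1.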
